A study of Homo sapiens with 8 samples.

Results

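WTC11, an induced pluripotent stem cell line, was compared with WA09, an embryonic stem cell line, over all 8 libraries of a study of cilium motor knockouts. The 5 WTC11 libraries were 2 controls (1 matched to guide RNA 1 and 1 to guide RNA 2) and 3 KIF3B-/- libraries (2 made with guide 1 and 1 with guide 2). The 3 WA09 libraries were 2 controls and 1 KIF3A-/- library, all of guide 1. KIF3A and KIF3B are the motor subunits of kinesin-2, which carries cargo along the cilium. Cells of both lines were undifferentiated, untreated and grown in mTeSR1 without feeder cells. Each library was amplified from a small number of cells with SMART-Seq chemistry. Line was the term of interest and knockout status an additive term, and 12766 of 58302 entries in the counts table were tested, those with at least 10 counts in 3 or more libraries.

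The design sets what this comparison can hold. Line, source of the cells (induced or embryonic), the gene knocked out, its guides and any difference in when the lines were handled cannot be told apart. Each source is a single line, so the comparison is between these lines and not between induced and embryonic cells at large. The KIF3A-/- library has no replicate. The series text speaks of several clones, but the labels do not tie each library to a clone or culture of its own, so p-values measure the spread between libraries, which may be technical.

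Embryonic stem cells come from the inner cells of the blastocyst, and induced pluripotent cells are adult cells reset by reprogramming factors. Both rest on the transcription factors OCT4 (the product of POU5F1), SOX2 and NANOG, depend on FGF and Nodal signals in culture and, under the conditions usual for human cells, stay in the primed state that resembles the epiblast shortly before gastrulation. Lines of either kind are known to differ from one another in DNA methylation, in genotype and in their bias toward a lineage.

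Libraries held 2161890 to 2875163 counts, 2161890 to 2875163 in WTC11 and 2236845 to 2605256 in WA09. Between 16658 and 18562 genes had a count in WTC11 libraries, and between 17949 and 18451 in WA09 libraries. POU5F1 (464 to 592 counts), SOX2 (231 to 352) and NANOG (125 to 161) were present in every library. The lineage markers SOX1, SOX10, SOX17, CDX2, LUM and DCN had 0 counts in all 8, which allows up to 3 counts in each library and covers counting error only. PAX6 did not exceed 6 counts, GATA3 did not exceed 9, and COL1A1 ran from 46 to 286. The primitive streak and mesoderm markers MIXL1 and T did not exceed 15 and 2 counts, and the endoderm marker FOXA2 did not exceed 3. KIF3A and KIF3B RNA differed between the lines by 0.01 ± 0.24 (SE) and -0.05 ± 0.29 on the log2 scale (edgeR adjusted p = 0.984 and 0.946). Each gene was knocked out in 1 line alone, so for them the additive term cannot separate line from knockout. Their differences were -0.29 and -0.24 among controls and 0.47 and 0.21 among knockouts. Neither was absent in the libraries labelled as its knockout. KIF3A had 75 counts in the KIF3A-/- library (174 and 167 in WA09 controls). KIF3B had 129, 86 and 107 in the KIF3B-/- libraries (71 and 59 in WTC11 controls). Component 1 of a principal component analysis held 30% of the variance and had positive scores in every WTC11 library but control 1 (-25.6) and negative scores in all WA09 libraries. Component 2 (20.8%) set WTC11 control 1 apart, at 72.05 against 10.07 or less in the other 7 libraries. The count of calls without that library is given below, with the calls lost among the genes named by rule. For other called genes in the text, a loss of the call without that library is not given.

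Levels below are CPM, a gene's counts for every 1000000 counts of the TMM-adjusted library total over the tested genes. Differences are fitted log2 fold changes, WTC11 minus WA09, with their standard errors, and a gene is called when edgeR's quasi-likelihood test gives a Benjamini-Hochberg adjusted p under 0.05 over all 12766 genes. Values are listed in 1 order throughout: control 1, control 2, then KIF3B-/- 1, 2 and 3 for WTC11, and control 1, control 2, then KIF3A-/- for WA09.

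WTC11 had 88 called genes above WA09 (0.689% of those tested) and 47 below it (0.368%). Together these were 1.06% of the tested genes. The lack of a call in a gene list below is close to that share and is not a result about its members. The higher genes included those for the histone acetyltransferase CREBBP, the chromatin remodelling subunits ARID1A, PBRM1 and BPTF, the DNA methyltransferase DNMT3A, the insulator protein CTCF and the mRNA export receptor NXF1. Among the lower genes were LEFTY2, a feedback inhibitor of Nodal, and genes of mitochondrial metabolism such as SDHAF4, SUCLA2, HIBADH, COQ5 and COA5. The median difference was 0.86 among the higher genes (0.39 to 3.94) and -1.21 among the lower genes, and 31 higher and 26 lower genes exceeded a 2-fold difference. At an unadjusted p under 0.05 stood 2433 genes.

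**Figure D1:**
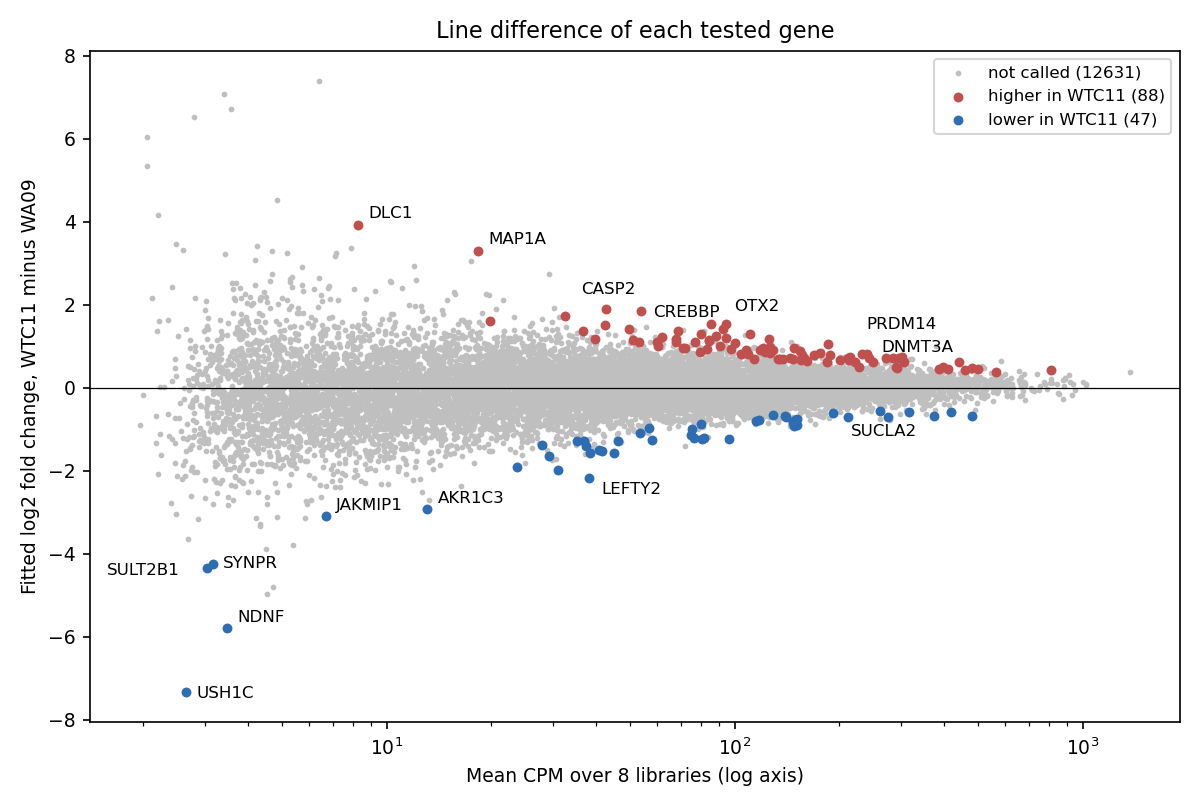
Fitted log2 fold change (WTC11 minus WA09) of each of 12766 tested genes against its mean CPM over 8 libraries, on a log axis. Red points are the 88 genes called higher in WTC11 and blue points the 47 called lower; the called genes with the largest differences, USH1C and NDNF below and DLC1 and MAP1A above, are among those of low level.

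No called gene overlapped between the lines: in all 135, every WTC11 library lay on one side of every WA09 library. Over all tested genes, every WTC11 library was above every WA09 library in 964 (7.55%) and below in 1099 (8.61%). In the fit with a mean for each group, the control libraries alone gave no called gene (0%), with 1945 genes at an unadjusted p under 0.05, the smallest edgeR adjusted p at 0.0561, and 248 called by DESeq2 and 0 by limma voom. A dependence of the line difference on knockout status was likewise called for no gene (0%), with 1228 at an unadjusted p under 0.05, the smallest edgeR adjusted p at 0.466, and 23 called by DESeq2 and 0 by limma voom. DESeq2 called 131 of the 135 in the comparison over all libraries and limma voom 100.

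The number of calls depended on single libraries. Without WTC11 control 2, without KIF3B-/- 3, or without any 1 of the 3 WA09 libraries, no gene was called (unadjusted p under 0.05 in 1897, 2163, 2190, 1918 and 1948 genes). Without WTC11 control 1, 206 were called (105 higher and 101 lower), 97 of them among the 135. Of the 45 called genes named by rule, 4 lost their call without it, DLC1 (edgeR adjusted p = 0.0576), POM121C (adjusted p = 0.0561), ZNF629 (adjusted p = 0.0657) and SULT2B1 (adjusted p = 0.0517). Without KIF3B-/- 1 and KIF3B-/- 2, 59 and 31 were called. Because the 135 were chosen on these libraries and none overlapped, their kept sign when a library was left out carries no information.

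The genes with the largest differences were of low level, and were close to off in one line. Among the 135, 7 reached 10 counts in libraries of the higher line alone, so that they could enter the test only with a difference: USH1C, NDNF, SULT2B1, SYNPR and JAKMIP1 below and DLC1 and MAP1A above. USH1C encodes harmonin, a scaffold protein of hair-cell bundles and of the gut brush border, and lies at chr11:17493895-17544416 (GRCh38, minus strand). Its counts were 0, 0, 0, 0 and 0 in WTC11 and 12, 18 and 22 in WA09. Every WA09 library thus held USH1C reads and no WTC11 library did, and set against a floor of 3 counts over the 5 WTC11 libraries, the level was at least 28.2-fold higher in WA09 (edgeR adjusted p = 0.0467). NDNF, a secreted factor of neurons and endothelium (chr4:121035613-121073021), had 0, 0, 2, 0 and 0 counts in WTC11 and 17, 20 and 29 in WA09. Its ratio was 53.7-fold in favour of WA09, with a 95% counting interval of 14.3 to 452 that leaves out the spread between libraries (edgeR adjusted p = 0.0341). The steroid sulphotransferase SULT2B1 had 4 counts in all of WTC11 against 57 in WA09 (23.2-fold, 8.57 to 87.9), and the synaptic vesicle protein SYNPR 8 against 53 (10.8-fold, 5.09 to 26.2). JAKMIP1, which binds microtubules and GABA-B receptors, had 20 against 110 (8.94-fold, 5.52 to 15.2). All of these were called, with edgeR adjusted p of 0.0485, 0.047 and 0.0425 for the last 3. Limma voom did not call SULT2B1 (adjusted p = 0.0547) or JAKMIP1 (adjusted p = 0.0513), and DESeq2 gave no adjusted p for USH1C, NDNF, SULT2B1 and SYNPR.

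The opposite pattern was found in DLC1 and MAP1A. DLC1, a regulator of the actin cytoskeleton, had 18, 7, 31, 63 and 38 counts in WTC11 and 2, 1 and 1 in WA09. Its lowest WTC11 library, control 2, exceeded the highest WA09 library, and the ratio was 24.1-fold in favour of WTC11 (9.24 to 89.7 by counting error, edgeR adjusted p = 0.0452). MAP1A, a microtubule-associated protein best known from neurons (chr15:43510958-43531620), had 14.3, 20.3, 22.1, 34.2 and 48.7 CPM in WTC11 and 1.58, 3.37 and 1.78 CPM in WA09. Its difference was 3.31 ± 0.52 (SE) on the log2 scale (edgeR adjusted p = 0.0323). The WTC11 libraries of MAP1A were spread, with KIF3B-/- 3 the highest, and the lowest was still well above WA09. Among controls alone the fitted difference was 2.77 and among knockouts 4.26. Limma voom called neither DLC1 (adjusted p = 0.154) nor MAP1A (adjusted p = 0.0734).

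The DNA just before the start of USH1C and MAP1A is shown because these genes were near off in opposite lines. Each sequence is the 250 bases that precede the outermost RefSeq start on GRCh38.p14, read in the direction of the gene, with each CG, the dinucleotide that DNA methylation targets and the only motif searched (it reads the same on both strands), in capitals. The first is chr11:17544417-17544666 on the minus strand and the second chr15:43510704-43510953 on the plus strand.
USH1C: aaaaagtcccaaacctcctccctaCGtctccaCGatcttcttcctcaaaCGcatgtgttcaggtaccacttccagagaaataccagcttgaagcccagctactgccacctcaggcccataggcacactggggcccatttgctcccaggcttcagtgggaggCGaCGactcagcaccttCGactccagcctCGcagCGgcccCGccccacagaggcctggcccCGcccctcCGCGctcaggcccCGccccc
MAP1A: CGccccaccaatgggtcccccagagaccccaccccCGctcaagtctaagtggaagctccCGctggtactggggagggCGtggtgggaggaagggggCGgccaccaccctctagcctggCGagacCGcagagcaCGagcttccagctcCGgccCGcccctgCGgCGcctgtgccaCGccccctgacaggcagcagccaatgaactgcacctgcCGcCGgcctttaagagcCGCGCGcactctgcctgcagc
The stretch before USH1C holds 13 CG, and 46.6% of 35116 RefSeq stretches of this length hold at least as many. The stretch before MAP1A holds 18, and 36.8% hold at least as many. A RefSeq start further inside each gene is preceded by 5 CG in USH1C (65.7% hold at least as many) and 9 in MAP1A (54.1%). Both outer stretches thus carry CG in numbers common among promoters, and methylation was not measured here.

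Pluripotency factors at the centre of the network differed little. POU5F1 was at 222, 235, 197, 203 and 175 CPM in WTC11 and 223, 222 and 251 in WA09, a difference of -0.15 ± 0.12 (SE, edgeR adjusted p = 0.534). The lines overlapped in POU5F1, as they did in SOX2 (-0.12), NANOG (0.08), LIN28A (0.11), an RNA-binding repressor of let-7, and SALL4 (0.39). Of 26 core pluripotency genes tested, 2 were called higher and 0 lower, 19 had a positive difference, and their median was 0.13 against -0.00 for all genes (25th to 75th percentile -0.33 to 0.30). Lines did not overlap in 8 of the 26, with 6 higher in WTC11 (23.1%, against 7.55% of all genes) and 2 lower (7.69%, against 8.61%).

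PRDM14 and TRIM71 were the called members of that list. PRDM14, a zinc finger regulator that keeps the human pluripotency network active and guides germ cell specification, had 200.3, 325, 281, 305 and 284 CPM in WTC11 and 147, 156 and 158 CPM in WA09. WTC11 control 1 was the lowest of its line and still above WA09, and the difference was 0.83 ± 0.15 (SE, edgeR adjusted p = 0.0389). TRIM71, an RNA-binding ubiquitin ligase and let-7 target, stood at 223, 244, 333, 297 and 378 CPM in WTC11 and 168, 148 and 206 in WA09. Its difference was 0.62 ± 0.12 (edgeR adjusted p = 0.0421), and the gap between the nearest libraries of the lines was narrow. DPPA4, DNMT3B, JARID2 and IGF2BP1 were higher in every WTC11 library without passing the test (0.22, 0.39, 0.52 and 0.60). DPPA2, which works as a pair with DPPA4, was lower in every WTC11 library (-0.86 ± 0.36, edgeR adjusted p = 0.228), so the members of that pair lay on opposite sides.

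Markers of the primed state leaned toward WTC11. OTX2, a homeobox factor of the primed epiblast and of the anterior neural plate, was the called member, at 92.1, 99.7, 112.1, 123 and 212 CPM in WTC11 and 33.6, 41.5 and 41.8 CPM in WA09. KIF3B-/- 3 stood far above the other WTC11 libraries, but the lowest WTC11 library was also more than double the highest of WA09. The difference was 1.55 ± 0.25 (SE, edgeR adjusted p = 0.0323), 1.35 among controls and 1.83 among knockouts. Of 21 primed genes tested, 1 was called higher and 0 lower, 15 were positive, 6 were negative and the median was 0.25. Every WTC11 library was higher in 6 of the 21 (28.6%, against 7.55% of all genes) and lower in 0 (0%, against 8.61%). Beside OTX2 these included SOX11 (0.80), SALL2 (0.77), ETV4 (0.38) and CD24 (0.26), of which CD24 is a surface protein and the rest are transcription factors. The negative members included DUSP6 (-0.62 ± 0.20, edgeR adjusted p = 0.121) and THY1 (-0.17), both with overlap.

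Few naive-state genes could be tested. Of 25, 9 passed the filter, 8 of these 9 were negative, and the median was -0.40 with none called. ZFP42 (REX1), the most abundant, ran from 306 to 369 CPM in WTC11 and from 377 to 406 in WA09, without overlap (-0.21 ± 0.09, edgeR adjusted p = 0.258). The summed level of the list was 383 to 496 CPM in WTC11 and 480 to 530 CPM in WA09, with 5 of the 25 at 0 counts in every library.

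**Figure D2:**
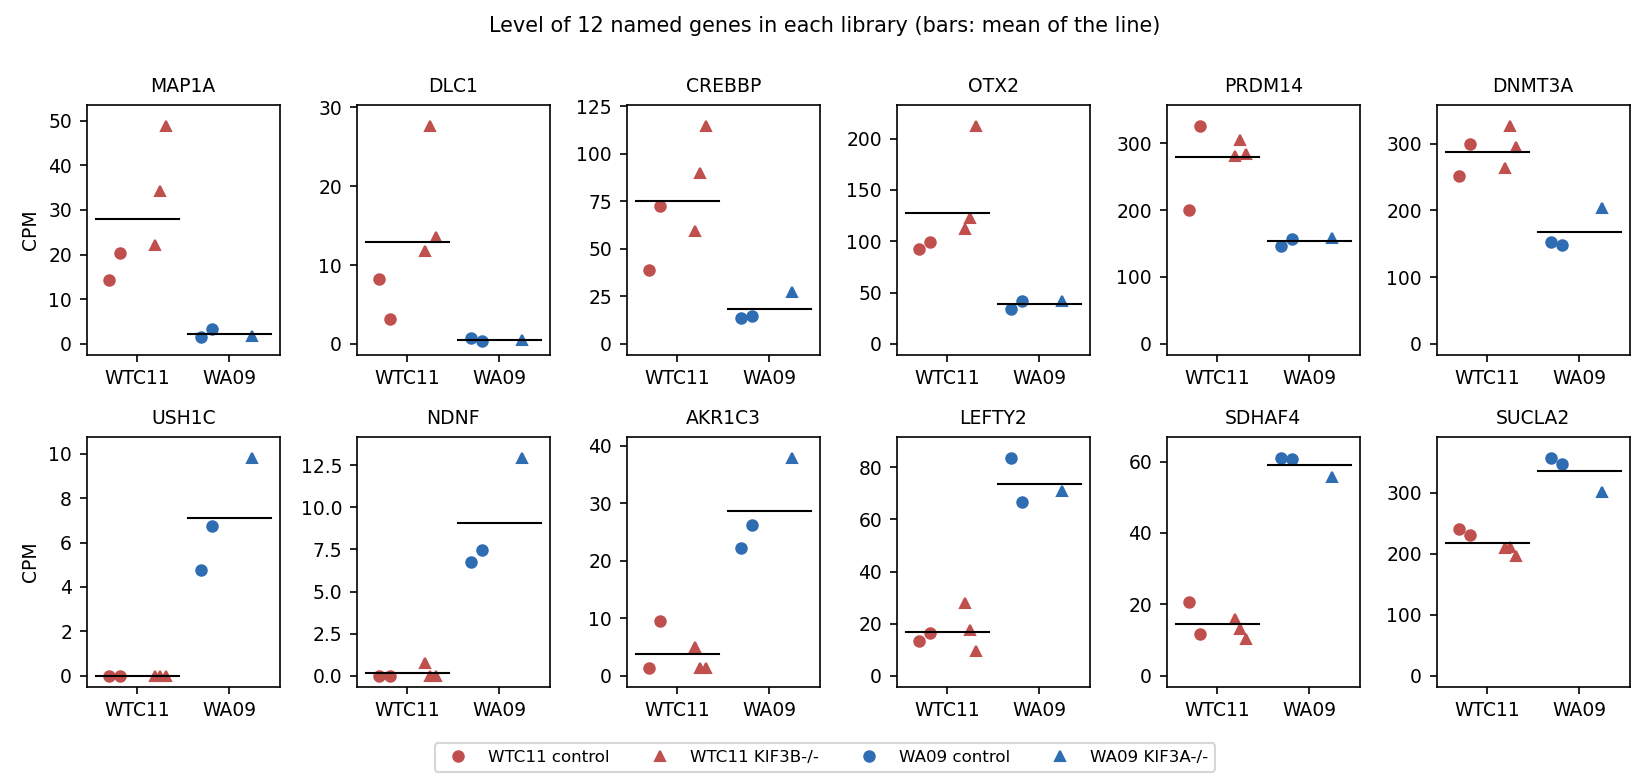
Level in CPM of 12 called genes in each library, with controls as circles and knockouts as triangles, and a line at the mean of each cell line. WTC11 (red) lies above WA09 (blue) in the upper row and below it in the lower row. No panel shows an overlap, which holds for every called gene.

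Nodal signalling keeps primed cells pluripotent and induces its own inhibitors, LEFTY1 and LEFTY2. LEFTY2 had 13.4, 16.2, 27.8, 17.5 and 9.60 CPM in WTC11 and 83.5, 66.6 and 70.8 in WA09. All WA09 libraries were more than double the highest WTC11 library, and the difference was -2.17 ± 0.32 (SE, edgeR adjusted p = 0.0323), with -2.34 among controls and -1.95 among knockouts. LEFTY1 (39.6, 57.3, 66.3, 47.3 and 8.53 CPM in WTC11 and 131, 115 and 111 in WA09) was also lower in every WTC11 library, with -1.39 ± 0.43, but was not called (edgeR adjusted p = 0.115). These genes are near-identical neighbours, and how reads that fit both were assigned is not given, so their split is uncertain. NODAL itself overlapped between the lines, with 21.6, 51.9, 25.2, 69.2 and 7.47 CPM in WTC11 and 50.2, 44.5 and 60.5 CPM in WA09 (-0.58 ± 0.53, edgeR adjusted p = 0.593).

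Receptors and effectors of the pathway had differences of the other sign or close to 0. ACVR2B, a type II receptor, was higher in every WTC11 library (0.64 ± 0.19, edgeR adjusted p = 0.0984), as was FOXH1, the DNA-binding partner of SMAD2 (0.40 ± 0.18, edgeR adjusted p = 0.257). SMAD2 (0.08), TDGF1 (0.12), the Nodal co-receptor, and GDF3 (0.12) overlapped. Of 26 Nodal and TGF-beta genes tested, 0 were called higher and 1 lower, 19 were positive, and the median was 0.14. INHBA, which encodes the activin A subunit, had 0, 22, 11, 18 and 1 counts in WTC11 and 0, 0 and 0 in WA09. Because WTC11 control 1 was also at 0, the lines overlapped in INHBA, and it was not called (edgeR adjusted p = 0.154) although its summed level was at least 10.7-fold higher in WTC11 against a floor of 3 counts over WA09. Without control 1 the edgeR adjusted p of INHBA was 0.0654.

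In the Wnt list of 29 tested genes, 1 was called higher and 0 lower, with a median of -0.04. TCF7L1, the T-cell factor that represses Wnt targets in pluripotent cells, had 79.7, 69.5, 77.0, 71.4 and 73.9 CPM in WTC11 and 34.8, 35.6 and 40.1 in WA09. Values were tight in both lines, and the difference was 1.00 ± 0.18 (SE, edgeR adjusted p = 0.0411). AXIN2, a Wnt feedback inhibitor, was higher in every WTC11 library (1.78, edgeR adjusted p = 0.0866), while the receptor FZD6 was lower in every one (-1.31, edgeR adjusted p = 0.0896). None of 26 FGF and ERK, 16 BMP or 16 Hedgehog genes was called, with medians of 0.11, -0.16 and 0.42. The FGF feedback phosphatase DUSP6 overlapped, at 149 to 371 CPM in WTC11 and 368 to 417 in WA09 (-0.62 ± 0.20, edgeR adjusted p = 0.121).

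Writers and erasers of DNA methylation were among the lists that leaned most toward WTC11. DNMT3A, which sets new methylation marks together with DNMT3B, had 251, 299.9, 264, 326 and 295 CPM in WTC11 and 153, 147 and 204 in WA09. The KIF3A-/- library was the highest of WA09 and stayed below every WTC11 library. Its difference was 0.73 ± 0.12 (SE, edgeR adjusted p = 0.0334). In 7 of 18 tested members every WTC11 library was higher (38.9%, against 7.55% of all genes), and in 0 every one was lower (0%, against 8.61%). These were DNMT3A, the maintenance enzyme DNMT1 (0.54 ± 0.13, edgeR adjusted p = 0.06), DNMT3B (0.39 ± 0.11, adjusted p = 0.0901), the oxidases TET1 (0.56 ± 0.19, adjusted p = 0.14) and TET3 (1.32 ± 0.42, adjusted p = 0.123), the zinc finger corepressor TRIM28 (0.40 ± 0.10, adjusted p = 0.0603) and MBD3 (0.27 ± 0.15, adjusted p = 0.357). Over the list, 1 was called higher, 0 lower, 12 were positive, 6 were negative and the median was 0.26.

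Polycomb complexes, which silence genes through histone marks, had no called gene. Of 28 tested, 20 were positive and the median was 0.11. Every WTC11 library was higher in 4 (14.3%, against 7.55% of all genes) and lower in 0 (0%, against 8.61%). EZH2, the H3K27 methyltransferase, was at 140.0, 130.3, 119, 151 and 138 CPM in WTC11 and 44.3, 63.6 and 97.0 CPM in WA09, a difference of 0.95 ± 0.20 (edgeR adjusted p = 0.0501). The WA09 libraries of EZH2 were far from each other, with the knockout highest. The others were JARID2 (0.52), RYBP (0.92) and PCGF2 (2.15). EED (-0.02) and SUZ12 (-0.04), which form the enzyme's core with EZH2, overlapped.

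Called genes outside the lists included more regulators of chromatin. CREBBP, which acetylates histones at enhancers, had 38.7, 72.6, 59.5, 89.8 and 114 CPM in WTC11 and 13.5, 14.6 and 27.1 in WA09, a difference of 1.85 ± 0.30 (SE, edgeR adjusted p = 0.0323). WTC11 control 1 was the lowest of its line, and limma voom did not call CREBBP (adjusted p = 0.0526). CTCF, which shapes chromatin loops, differed by 0.68 ± 0.14 (edgeR adjusted p = 0.0474), with 137 to 178 CPM in WTC11 and 89.4 to 101 in WA09. The SWI/SNF subunits ARID1A (48.3 to 93.5 against 24.0 to 41.8 CPM) and PBRM1 (154 to 216 against 89.0 to 115) differed by 1.24 and 0.89 (edgeR adjusted p = 0.0452 and 0.0382). For the corepressor NCOR1 the difference was 0.85, for the NURF subunit BPTF 0.92 and for the cell cycle coregulator HCFC1 0.91 (edgeR adjusted p = 0.0452, 0.0452 and 0.0452). ARID1A, PBRM1, CTCF, NCOR1, BPTF and HCFC1 are described because they were called, after their values were seen.

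RNA-binding proteins supplied the call with the smallest p. ZC3HAV1, the zinc finger antiviral protein that binds CG-rich viral RNA, had 144, 155, 125, 148 and 139 CPM in WTC11 and 64.5, 53.1 and 57.4 CPM in WA09. Both lines were tight and far apart in ZC3HAV1, and the difference was 1.31 ± 0.15 (SE, edgeR adjusted p = 0.025). LARP1, which binds messages for ribosomal proteins, was at 269, 301, 284, 296 and 292 CPM and 142, 150.1 and 189 CPM (0.81 ± 0.11, edgeR adjusted p = 0.0323). NXF1, the main export receptor for mRNA, was at 108, 111.8, 124, 94.2 and 175 CPM and 46.3, 31.4 and 52.1 CPM (1.43 ± 0.23, adjusted p = 0.0323). NUFIP2 (1.19 ± 0.16, adjusted p = 0.0323) and the transcription modulator SLTM (0.96 ± 0.15, adjusted p = 0.0323) were higher as well. TSR1, needed for maturation of the small ribosomal subunit, differed by 0.72 ± 0.11 (adjusted p = 0.0323).

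Lists taken by symbol after the called genes had been seen gave a wider view of RNA processing, as description. Of 33 hnRNP and SR splicing proteins tested, 3 were called higher (HNRNPM 0.48, HNRNPU 0.42 and SRSF6 0.68) and 0 lower, the median was 0.13, and every WTC11 library was higher in 12 (36.4%, against 7.55% of all genes) and lower in 1 (3.03%, against 8.61%). The called share was 9.09%, against 1.06% of all genes, and limma voom called 2 of the 33. Their median was 0.25 among controls and -0.01 among knockouts. Of 49 DEAD and DEAH box helicases, which unwind RNA, 3 were called higher (DHX33 1.15, DDX46 0.71 and DDX56 0.64), 0 lower, the median was 0.27, and every WTC11 library was higher in 15 (30.6%) and lower in 3 (6.12%), with a called share of 6.12%. Limma voom called 0 of the 49 helicases, whose median was 0.10 among controls and 0.35 among knockouts. Only symbols that begin with DDX or DHX were taken. The helicase EIF4A2, called lower in WTC11 (-0.70), does not fall under those symbols and is not among the 49. Cytosolic ribosomal proteins gave none called among 80, with a median of 0.02. That median was 0.23 among controls and -0.25 among knockouts.

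CASP2, an initiator caspase, had 46.0, 59.5, 55.7, 84.5 and 51.6 CPM in WTC11 and 17.0, 8.61 and 19.1 in WA09 (1.91 ± 0.31, edgeR adjusted p = 0.0323). The nearest libraries of the lines, WTC11 control 1 and the KIF3A-/- library, were still more than double apart. Further genes of large difference were SLC35E1 (1.74 ± 0.34, adjusted p = 0.0452), of a family of nucleotide-sugar transporters, the endocytic receptor LRP1 (1.54 ± 0.32, adjusted p = 0.047), the MAP kinase phosphatase DUSP16 (1.41 ± 0.22, adjusted p = 0.0323), and the zinc finger genes ZNF460 (1.51 ± 0.27, adjusted p = 0.0385) and ZNF629 (1.37 ± 0.29, adjusted p = 0.047). For LRP1 the line difference was 1.06 among controls and 2.31 among knockouts, WA09 control 2 lying above the other WA09 libraries. POM121C, of the nuclear pore, was 24.1 to 28.6 CPM in WTC11 and 5.99 to 9.89 in WA09 (1.62 ± 0.33, adjusted p = 0.0452), and shares reads with the near-identical POM121, so its level is uncertain. LANCL2 (1.21), the ubiquitin ligase adaptor WSB1 (0.99) and the cytochrome P450 CYP2S1 (0.62) were also called higher. Limma voom did not call SLC35E1 (adjusted p = 0.0598), POM121C (adjusted p = 0.0547) or ZNF629 (adjusted p = 0.062). On chromosome 19, ZNF460 was the only called gene of 210 zinc finger genes (0.476%, against 1.06% of all genes), whose median was 0.08. Every WTC11 library was higher in 12 (5.71%, against 7.55% of all genes) and lower in 12 (5.71%, against 8.61%).

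Mitochondrial enzymes appeared among the genes lower in WTC11. SDHAF4, an assembly factor of succinate dehydrogenase, had 20.7, 11.7, 16.01, 13.1 and 10.3 CPM in WTC11 and 60.9, 60.6 and 55.6 CPM in WA09, a difference of -1.98 ± 0.28 (SE, edgeR adjusted p = 0.0323). All 3 WA09 libraries were more than double the highest WTC11 library. SUCLA2, a subunit of succinyl-CoA synthetase in the citric acid cycle, was at 241, 230.0, 210.1, 211 and 196 CPM and 356, 347 and 301 CPM (-0.57 ± 0.09, adjusted p = 0.0323). HIBADH, of valine breakdown, was at 70.9, 71.7, 75.1, 44.2 and 49.4 CPM and 158, 168 and 135 CPM (-1.22 ± 0.18, adjusted p = 0.0323). NIPSNAP3A differed by -1.25 ± 0.19 (adjusted p = 0.0323), and COQ5, of ubiquinone synthesis, by -0.69 ± 0.13 (adjusted p = 0.0452). COA5, of cytochrome oxidase assembly, differed by -0.86 ± 0.16 (adjusted p = 0.0452), and BNIP3, a mitophagy receptor, by -1.14 ± 0.24 (adjusted p = 0.0462). COQ5, COA5 and BNIP3 were picked after the calls were seen.

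Larger sets of mitochondrial genes held no call, near the 1.06% called among all tested genes. Of 88 nuclear genes taken by symbol after the calls were seen, subunits of the respiratory complexes and the assembly factors whose symbols begin with COX or UQCC, none was called. SDHAF4 and COA5 do not fall under those symbols and are not among the 88. The median of the 88 was -0.06, which turned to 0.08 with a trend in transcript length removed. Among controls it was 0.14 and among knockouts -0.34. Every WTC11 library was lower in 3 of the 88 (3.41%, against 8.61% of all genes) and higher in 0 (0%, against 7.55%). Among 77 proteins of the mitochondrial ribosome, none was called, and the median was -0.08, or 0.09 with that trend removed. It was 0.10 among controls and -0.34 among knockouts. The 15 genes of the mitochondrial genome were all positive and none was called, with a median of 0.18, which was 0.37 among controls and -0.06 among knockouts. The share of counts on that genome was 0.344% to 0.410% in WTC11 and 0.290% to 0.399% in WA09. Glycolysis (24 tested, median -0.00, or 0.14 with the trend removed) and cholesterol synthesis (25, 0.03) had no called gene.

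AKR1C3, an aldo-keto reductase that acts on steroids and prostaglandins, had 1.38, 9.47, 4.96, 1.31 and 1.42 CPM in WTC11 and 22.2, 26.2 and 37.8 in WA09. WTC11 control 2 was the highest of its line, and the lowest WA09 library was still more than double it (-2.93 ± 0.61, edgeR adjusted p = 0.0462). Near-identical members of its family make its level uncertain. It was the 1 called gene of 39 in glutathione and aldehyde detoxification (median -0.07), where HMOX1 (0.96, adjusted p = 0.0922) and GCLM (0.79, adjusted p = 0.0512), both known targets of NRF2, lay higher in every WTC11 library without passing the test. NFE2L3, a transcription factor related to NRF2, was lower in WTC11, at 383, 298, 311, 268 and 239 CPM against 523, 487 and 486 (-0.68 ± 0.12, adjusted p = 0.0356).

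Other genes lower in WTC11 served trafficking, ion transport and translation. RAB17, a small GTPase of epithelial sorting, was at 24.4, 7.22, 8.39, 7.88 and 8.18 CPM in WTC11 and 34.0, 55.8 and 43.6 CPM in WA09 (-1.91 ± 0.39, edgeR adjusted p = 0.0452). WTC11 control 1 stood well above the rest of its line and still below WA09. Zinc transporter SLC30A9 was at 236 to 292 CPM and 381 to 462 CPM (-0.59 ± 0.10, adjusted p = 0.0333). The helicase EIF4A2, of translation initiation, was at 232, 231, 249.3, 183 and 202 CPM and 407, 378 and 324 CPM (-0.70 ± 0.12, adjusted p = 0.0323). MACROD1, an ADP-ribose hydrolase found in mitochondria, differed by -1.63 ± 0.32 (adjusted p = 0.0452), SCRN2 by -1.58 ± 0.27 (adjusted p = 0.0344), the peptidyl-prolyl isomerase PPIE by -0.76 ± 0.13 (adjusted p = 0.0349), MFSD3 by -0.84 ± 0.14 (adjusted p = 0.0323), and the zinc finger pseudogene ZNF204P by -1.57 ± 0.26 (adjusted p = 0.0323).

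Few genes reported to vary between induced and embryonic lines could be tested. Of 25 such genes, 12 passed the filter and none was called, which is near the 1.06% called among all tested genes. Their median was 0.12 and ran from -0.19 to 0.20 over the alternatives. DNAJC15, a mitochondrial cochaperone silenced in some lines, had 79.2, 1.35, 52.99, 34.6 and 40.5 CPM in WTC11 and 83.9, 80.5 and 81.9 CPM in WA09. In DNAJC15, WTC11 control 2 was near 0, control 1 was close to WA09, and the KIF3B-/- libraries lay between (-0.99 ± 0.63, edgeR adjusted p = 0.428). The difference ran from -2.37 to -0.52 as each library was left out in turn. TCERG1L, often hypermethylated in induced cells, was not lower: it lay higher in every WTC11 library (21.2, 22.6, 14.9, 15.3 and 14.9 CPM against 11.5, 13.5 and 8.90 CPM, 0.79 ± 0.33, edgeR adjusted p = 0.228), as did IRX2 (2.92, adjusted p = 0.108). Of the 13 that could not be tested, TSPYL5, C9orf64 and ZNF208 had 0 counts in all 8 libraries, and CAT, TRIM4 and CHCHD2 did not exceed 2 counts in any.

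Transcripts driven by the endogenous retrovirus HERVH mark human pluripotent cells. Of 8 tested, none was called, 5 were negative and the median was -0.45. LINC00458 had 6, 10, 5, 5 and 5 counts in WTC11 and 45, 30 and 33 in WA09, a clear gap with -2.38 ± 0.51 (SE) that fell just short of the threshold (edgeR adjusted p = 0.0501). ESRG, the most abundant, differed by 0.08. No imprinted gene was called among 42, with a median of 0.08. GNAS (0.36, adjusted p = 0.0603) lay higher in every WTC11 library, and WRB (-0.71, adjusted p = 0.0661) and LPAR6 (-1.46, adjusted p = 0.0873) lower in every one.

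Markers of differentiated cells were without a call in every list. The summed level of 24 fibroblast and mesenchymal markers, 5 of them at 0 throughout and 15 tested, was 723 to 1503 CPM in WTC11 and 875 to 908 CPM in WA09, the highest value being KIF3B-/- 2. For 25 trophectoderm and amnion markers it was 606 to 721 CPM and 700 to 710 CPM, mostly keratins that pluripotent cells also express. For 22 neuroectoderm markers it was 223 to 251 CPM and 191 to 224 CPM, for 18 primitive streak and mesoderm markers 120 to 208 CPM and 138 to 170 CPM, for 16 endoderm markers 34.1 to 127 CPM and 52.6 to 58.0 CPM, and for 13 neural crest markers 103 to 163 CPM and 83.7 to 122 CPM. The part of any such cells in the line differences was not tested, and in these bulk libraries fewer cells of a kind and less RNA per cell cannot be told apart.

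**Figure D3:**
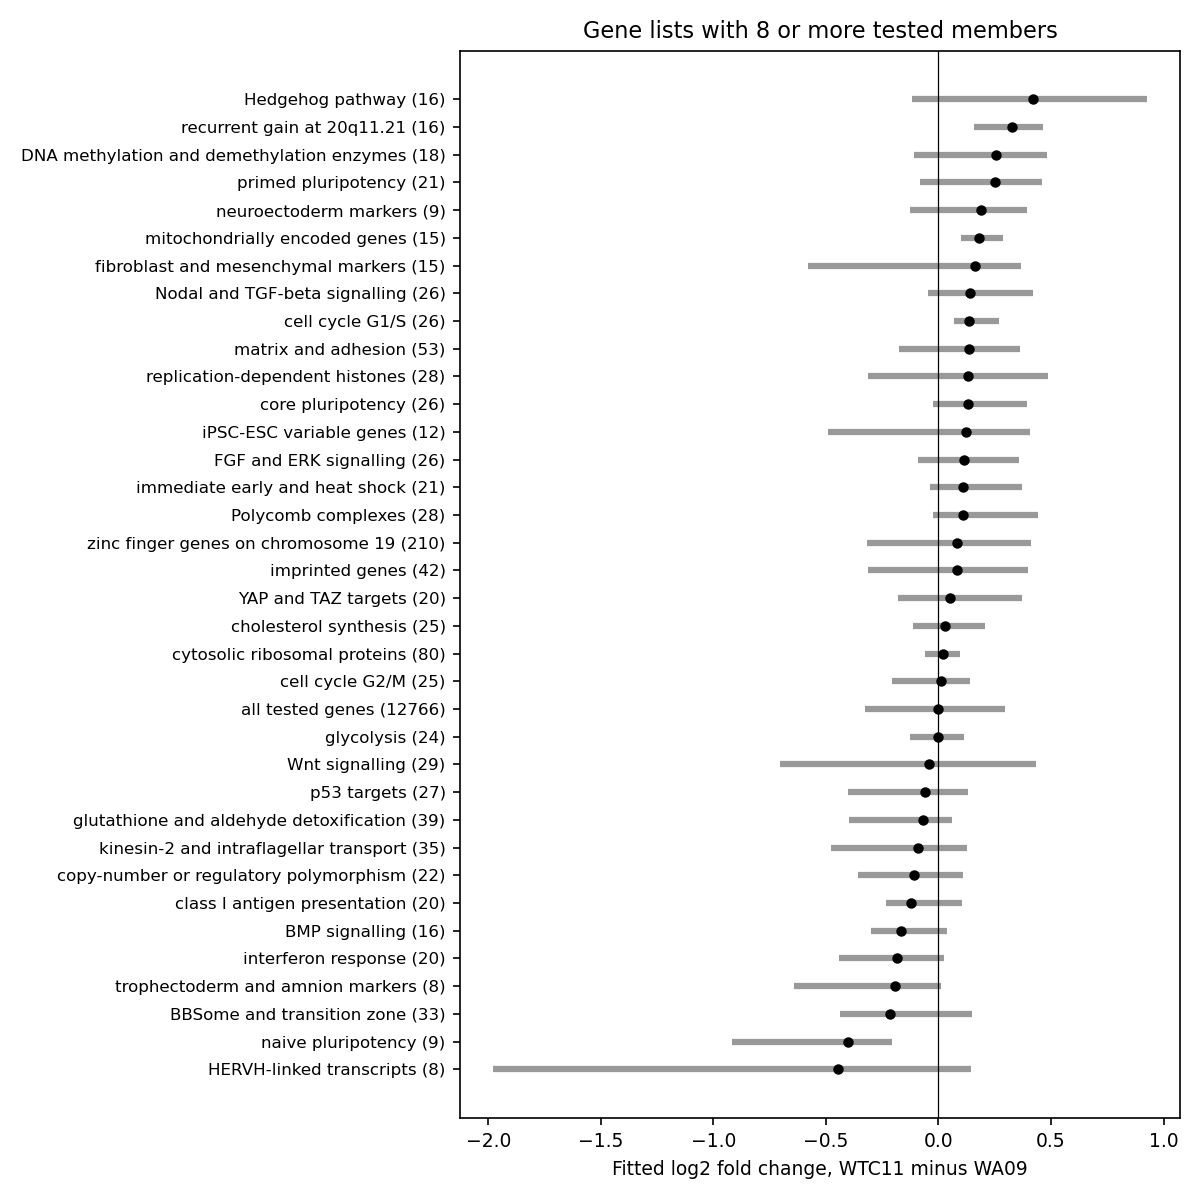
Median (points) and 25th to 75th percentile (bars) of the log2 fold change, WTC11 minus WA09, over the tested members of gene lists with 8 or more of them. The number tested is in brackets, and lists taken after the calls were seen are not drawn. The lists for the Hedgehog pathway, 20q11.21, DNA methylation and primed pluripotency lie to the right of all tested genes (median -0.00), and the naive and HERVH lists to the left. No list was tested.

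Position along the genome was examined because gains of the band 20q11.21 recur in cultured human pluripotent cells, and KIF3B lies there. Of 16 tested genes of that band, 1 was called higher and 0 lower, 13 were positive and the median was 0.32, with 0.38 among controls and 0.34 among knockouts. PLAGL2, a zinc finger transcription factor, was the called gene, at 84.3, 106, 104, 182 and 163 CPM in WTC11 and 55.8, 47.9 and 57.9 in WA09 (1.08 ± 0.22, edgeR adjusted p = 0.0463). KIF3B-/- 2 and 3 were the highest, and all WTC11 libraries exceeded WA09. Limma voom did not call PLAGL2 (adjusted p = 0.0619). Beside it, HM13 (0.35), DNMT3B (0.39), the spindle factor TPX2 (0.45), COMMD7 (0.51), POFUT1 (0.61) and ASXL1 (1.52) were higher in every WTC11 library, and none of the 16 was lower in every one. With PLAGL2, those higher were 43.8% of the 16, against 7.55% of all genes. The survival gene BCL2L1, usually named as the driver of the gain, was 0.30 with overlap (edgeR adjusted p = 0.614), and KIF3B was -0.05.

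Genes of the whole chromosome were counted next. On chromosome 20, every WTC11 library was higher in 43 of 341 tested genes (12.6%, against 7.55% of all genes) and lower in 13 (3.81%, against 8.61%), with a median of 0.10. Windows of equal width gave 15 higher (18.1%) and 3 lower of 83 genes from base 30000001 to 40000000. From base 40000001 to 50000000 there were 13 (19.7%) and 3 of 66, with medians of 0.17 in both windows. Of the other 5 windows, none had a median above 0.06 or a share higher in WTC11 above 12.5%. The 5 called genes of chromosome 20 were all higher in WTC11: NOP56 (0.62), PLAGL2, TOP1 (0.80), SRSF6 and NELFCD (0.87). Chromosome 8 leaned the other way, with 21 of 454 genes higher (4.63%) and 54 lower (11.9%), and so did chromosome 13 (5.49% and 11.8%) and chromosome 4 (5.51% and 10.4%). Copy number was not measured, and its part was not tested.

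**Figure D4:**
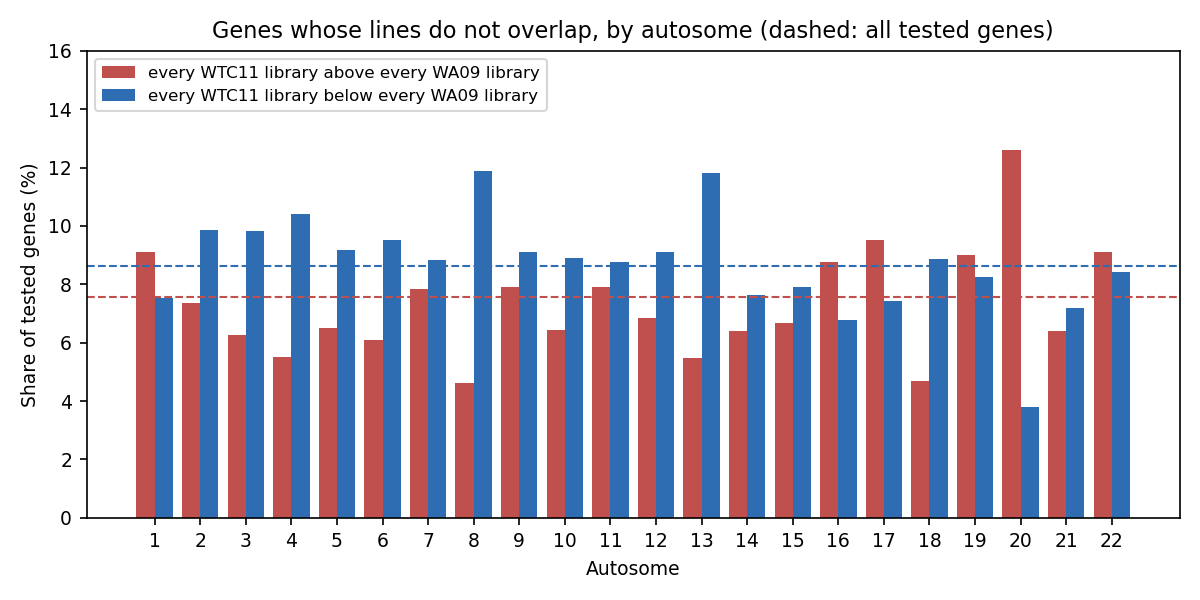
Percentage of the tested genes of each autosome in which every WTC11 library was above (red) or below (blue) every WA09 library, with dashed lines at the percentages over all tested genes (7.55% and 8.61%). Chromosome 20 has 12.6% above and 3.81% below, and chromosome 8 has 4.63% above and 11.9% below.

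Transcript length moved with the line difference. The 88 higher genes had a median length of 5654 bases for the longest transcript, against 2884 for the 47 lower genes and 3664 for all tested genes. When the genes were cut at the quartiles of length, from the shortest to the longest class, the median difference went from -0.10 through -0.03 and 0.03 to 0.13. The shortest class held 3 higher and 14 lower calls, and the longest 46 and 2. Across 12759 genes the rank correlation of difference and length was 0.21, a description over genes that share the same 8 libraries. With that trend removed, 161 genes were called, with 90 of the 135 among them. CREBBP (1.62), MAP1A (3.11), PRDM14 (0.95), OTX2 (1.64), LEFTY2 (-2.05) and SDHAF4 (-1.77) were still called, whereas DNMT3A (0.54, edgeR adjusted p = 0.0733), TRIM71 (0.48, adjusted p = 0.0633), LRP1 (1.28, adjusted p = 0.0637) and HNRNPU (0.17, adjusted p = 0.304) were not. Median GC content was 48.6% in the higher, 43.2% in the lower and 47.8% in all genes.

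**Figure D5:**
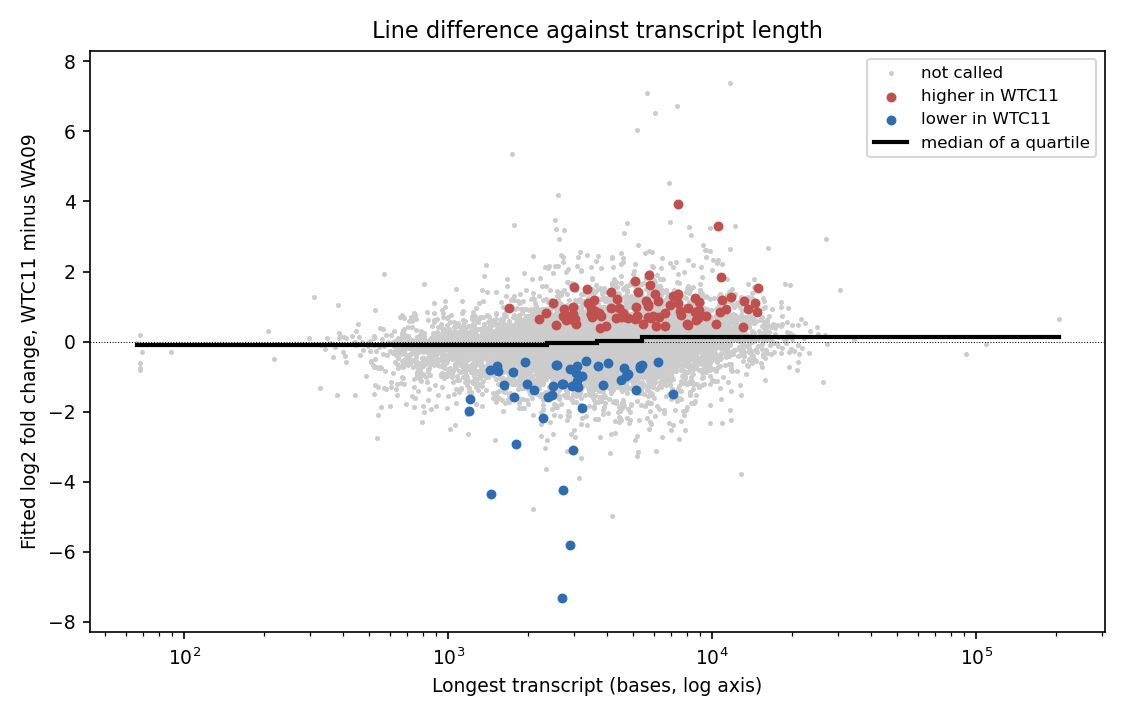
Fitted log2 fold change (WTC11 minus WA09) against the length of the longest annotated transcript, on a log axis, for the tested genes with a length. Black bars mark the median difference of each of the 4 length classes, from -0.10 in the shortest to 0.13 in the longest; 46 of 88 red points (higher in WTC11) lie in the longest class.

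Some large differences did not pass the test. In 84 genes the lines did not overlap and the fitted difference exceeded 2 in size, and 75 of them were not called (33 higher and 42 lower, edgeR adjusted p of 0.0501 to 0.245), with a median level of 5.39 CPM. COL12A1, a collagen, had 23, 7, 12, 70 and 6 counts in WTC11 and 0, 0 and 0 in WA09, at least 24.2-fold higher against a floor of 3 counts over WA09 (edgeR adjusted p = 0.0738). GRAMD1C, a sterol transfer protein, had 0, 0, 1.52, 0 and 0 CPM in WTC11 and 20.97, 7.11 and 6.68 CPM in WA09 (edgeR adjusted p = 0.0592). NMNAT3, of mitochondrial NAD synthesis, had 3.68, 3.16, 3.81, 8.76 and 2.13 and 19.4, 17.6 and 22.3 CPM (-2.31 ± 0.50, adjusted p = 0.0501). COL12A1, GRAMD1C and NMNAT3 were chosen after their values were seen.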

How the data were processed

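RNA of 8 libraries was sequenced. The authors deposited raw gene-level counts, as whole numbers in a single table, and the tests used them unchanged. Per the submitters' processing notes, STAR was run with hg38. Which counter, annotation and strand setting were used, and how duplicates were treated, is not given in the sources used here. Genes that overlap on opposite strands therefore cannot be separated. The 20993 entries without a gene name made up 0.446% to 0.673% of each library total and stayed in the table. Names, positions, transcript lengths and GC content came from GENCODE 29, to which 58039 of 58302 entries matched by identifier. Y-linked genes, XIST and TSIX were left out before the fits.

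Line differences were tested with edgeR 4.0.16 in R 4.3.3 (TMM normalization, robust quasi-likelihood F test, Benjamini-Hochberg adjustment), on all libraries with knockout status as an additive term. A second fit had a mean per group, with the lone KIF3A-/- library assumed to vary like the others. The standard error is the fold change divided by the root of F. Genes at 0 in one line were given against 3 counts over that line. A count of 0 allows 1.04 to 1.39 CPM in a library, by counting error only.

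The text names, among called genes without overlap and with at least 5 CPM in the higher line, the 12 with the largest difference in each direction, the 8 with the smallest p and at least 50 CPM, and called or most abundant members of the gene lists. Members and lists were chosen with earlier results of these data known. The fitting script was tested on simulated counts. Alternatives were other normalizations, filters, DESeq2 1.42.0, limma 3.58.1 with voom, other model terms, the removal of a length trend and leaving out each library.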

Additional observations from a re-analysis of the deposited data

Results flagged for a closer look

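In 111 genes, the 5 WTC11 libraries were checked for a single library far from the rest, by Dixon's criterion, which chance meets in about 1 in 20 groups; 10 genes met it. KIF3B-/- 3 stood above its line in OTX2 (211.9 CPM, against 122.6 in the next library). KIF3B-/- 2 stood out in ZNF460 (77.09 CPM, against 52.26) and in 4 genes of matrix or endoderm: CTGF (350 CPM, against 179.2), SPARC (680.6 CPM, against 489.4), COL1A2 (314.5 CPM, against 164.3) and CER1 (64.82 CPM, against 15.33). It also had the highest summed level of fibroblast markers. KIF3B-/- 1 was the only WTC11 library with NDNF (0.7625 CPM, 2 counts). WTC11 control 2 was highest in JAKMIP1 (3.608 CPM, against 1.525), and WTC11 control 1 in RAB17 (24.41 CPM, against 8.388) and TIPRL (112.4 CPM, against 94.71). Among these genes, OTX2, ZNF460, NDNF, JAKMIP1 and RAB17 were called. In each the library that stood apart lay on the WTC11 side of all WA09 libraries. No called gene overlapped between the lines, so that position carries no information.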

How the results depend on the processing

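Main counts were 88 genes higher and 47 lower in WTC11, 0 in controls alone and 0 for the dependence on knockout status. DESeq2 gave 466, 348, 248 and 23. Without a filter on low counts there were 497, 375, 527 and 160. With at least 30 counts in 3 libraries, 156 were higher, 122 lower and 4 called in controls. Without the knockout term, 196 were higher and 144 lower. Limma voom gave 56 higher and 61 lower, so that its balance was opposite to the main one, and the fit with the guide family as a factor gave 56 and 42. Upper-quartile normalization gave 76 lower and 3 in controls. The length trend removed gave 12 in controls. With the number of detected genes as a covariate, and with control libraries fitted alone, no gene was called in either direction. Leaving out 1 library gave 0 to 105 higher, 0 to 101 lower, 0 to 1 in controls and 0 to 1 for the dependence on knockout status, which could not be fitted without the KIF3A-/- library. The cause of these shifts was not tested, apart from the fewer genes or libraries that a filter or an omission leaves. Among the 44 medians over gene lists, 25 crossed 0 under at least 1 alternative, 5 of them with the length trend removed, and so did 37 of the 111 genes examined singly, none of them called. KIF3A ran from -0.29 to 0.23. Of the 45 called genes named by rule, 41 were called by DESeq2, 36 by limma voom, 35 with the guide family, 37 with the length trend removed and 0 with detected genes as a covariate.

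No paired analysis was possible because the labels give no replicate numbers that the lines share, and the guide numbers stand for guides against different genes. With 5 against 3 libraries and 2161890 to 2875163 counts each, differences of genes with few counts were not detectable at this depth unless they were large.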

Other observations

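The gene lists for the cell cycle, stress and immunity held no called gene and are given as values. Of 26 genes of the G1/S transition, 22 were positive with a median of 0.14, and RRM2, of nucleotide synthesis, lay higher in every WTC11 library (0.46 ± 0.11, edgeR adjusted p = 0.0635). Of 25 G2/M genes, the median was 0.01, below 0 under upper-quartile normalization. Every WTC11 library was lower in 3 of the 25 (12%, against 8.61% of all genes) and higher in 2 (8%, against 7.55%). Those lower included CDK1, the mitotic kinase (-0.51 ± 0.11, edgeR adjusted p = 0.0531), and HMMR (-0.64). PLK1 (0.36) and TPX2 (0.45) were those higher. Among 27 p53 targets the median was -0.06 (0.01 with the length trend removed), and MDM2 (0.72) was higher and CCNG1 (-0.32) lower in every WTC11 library. PMAIP1, a p53-responsive death factor outside that list, was called lower in WTC11, at 373, 424, 328, 352 and 257 CPM against 542, 554 and 522 CPM in WA09 (-0.58 ± 0.12, edgeR adjusted p = 0.0452), and so was the checkpoint kinase CHEK2 (-0.67 ± 0.13, edgeR adjusted p = 0.0452). PMAIP1 and CHEK2 were named after their values were seen.

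Interferon response genes (20 tested) had a median of -0.18 with 14 negative, and class I antigen presentation genes (20) one of -0.12 (0.02 with the length trend removed). Immediate early and heat shock genes (21) had a median of 0.11, and every WTC11 library was higher in 4 of them, HSPA1B (1.17), KLF6 (0.95), DUSP1 (0.89) and DNAJB1 (0.37). Among cilium genes, 35 of kinesin-2 and intraflagellar transport had a median of -0.09 and 33 of the BBSome and transition zone one of -0.21. DYNC2LI1, of the dynein that returns cargo from the cilium tip, lay lower in every WTC11 library, at 21.2, 30.2, 19.8, 21.9 and 12.4 CPM against 49.5, 46.4 and 65.0 CPM (-1.33 ± 0.29, edgeR adjusted p = 0.0512). YAP and TAZ targets (20) had a median of 0.05, -0.44 among controls and 0.35 among knockouts, and matrix and adhesion genes (53) 0.13, -0.14 and 0.52. Replication-dependent histones (28) had a median of 0.13, 0.35 among controls and -0.31 among knockouts, and share reads among near-identical copies. For genes with common copy-number or regulatory polymorphism (22 tested) the median was -0.11.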
